A study of Mus musculus with 19 samples.

Results

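Lysosomal proteases and the thiol reductase that works beside them were followed in mouse splenic dendritic cells of 3 genotypes. The group holds 10 genes, Ctsa, Ctsb, Ctsc, Ctsd, Ctsh, Ctsl, Ctss, Ctsz, Lgmn and Ifi30. They were chosen by symbol, and all 10 of them were present among the 24421 symbols of the count tables and passed the filter on low counts in both cell types. The libraries are bulk RNA-seq of type 1 and type 2 conventional dendritic cells (cDC1 and cDC2), sorted from spleen of C57BL6 mice. Each cell type was taken from WT animals, from animals lacking Xbp1 (Xbp1 KO) and from animals lacking both Xbp1 and Ire1 (Xbp1-Ire1 KO), with 4 libraries for cDC2 WT and 3 for each other group, 19 in all. Some WT libraries carry a name with loxP-flanked alleles (fl-fl) of both genes and others are named WT. In cDC1 replicates 1 and 2 are fl-fl and replicate 3 is WT, and in cDC2 replicates 1 and 2 are fl-fl and replicates 3 and 4 are WT. The labels give neither the driver that deletes the genes nor the age of the animals. Nothing states that replicates came from separate mice, so the p-values measure only how far these samples spread, which may be technical.

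Antigens taken up by dendritic cells are cut in endosomes and lysosomes by cathepsins and by the asparaginyl endopeptidase legumain, while the thiol reductase GILT, encoded by Ifi30, opens their disulfide bonds. Some of these proteases also remove the invariant chain from MHC class II molecules, so that peptides can bind. All these enzymes are made as precursors in the endoplasmic reticulum, where the sensor IRE1 (gene Ern1) splices Xbp1 mRNA to yield an active transcription factor. Loss of XBP1 is known to leave IRE1 overactive, and IRE1 can then cleave other mRNAs in a process called regulated IRE1-dependent decay. Comparing Xbp1 KO with Xbp1-Ire1 KO cells addresses which of the differences seen without Xbp1 also depend on Ire1.

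Library totals ran from 10606864 to 16209469 counts. Levels are given as CPM, counts per 1000000 counts after TMM scaling over all 19 libraries. Summed markers of cDC1 were 6032 to 8435 CPM in the cDC1 libraries and 211 to 350.3 CPM in the cDC2 libraries, and those of cDC2 were 24.2 to 111 CPM in cDC1 and 2547 to 3078 CPM in cDC2. In the cDC1 libraries the cDC1 markers differed by genotype. They summed to 7906 to 8435 CPM in Xbp1 KO, 6032 to 6766 in WT and 6624 to 7563 in Xbp1-Ire1 KO. Xbp1 counted over the whole gene fell in Xbp1 KO cDC1 (log2 fold change -0.81 ± 0.18 SE, adjusted p = 0.0129). In Xbp1-Ire1 KO cDC1 both Xbp1 (0.93 ± 0.18, adjusted p = 0.00628) and Ern1 (1.29 ± 0.17, adjusted p = 0.000467) rose against WT. Gene counts include exons outside a deleted part, so they are a limited check of the labels. In cDC2, Xbp1 was 1.11 lower on the log2 scale in Xbp1 KO and did not pass the test (log2 fold change -1.11 ± 0.24, adjusted p = 0.247). In Xbp1-Ire1 KO cDC2 neither gene was called against WT, with Xbp1 at -0.64 ± 0.24 (adjusted p = 0.647) and Ern1 at -0.09 ± 0.19 (adjusted p = 0.9), so the counts there do not show the rises seen in cDC1.

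Short sequences in or near these genes are shown because factors of the lysosome and of the IRE1 pathway recognise them. The hexamer CACGTG is the core of the element read by TFEB and related factors, regulators of lysosomal genes. RefSeq promoter windows (GRCm38.p6, 250 bases before to 50 after an annotated start) were found for 8 of the 10 genes, all but Ctsb and Ctsh. Ctsa and Lgmn had 2 windows each, which makes 10 windows. CACGTG was in 5 of the 10 windows, 1 for each of 5 genes, against 7.15% of 32851 windows of all genes. The starts of the windows with a match lay inside the GENCODE M21 gene for Ctsa (900 bases from its 5′ end), Lgmn (721), Ctsl (370) and Ctsd (211), and at the 5′ end for Ifi30. By a sequence check, the windows with a match overlapped the principal GENCODE M21 transcript for Ctsa, Ctsd and Ctsl. No such overlap was found for that of Lgmn, and Ifi30 had no principal transcript to check. The other windows of Ctsa and Lgmn, nearer to the 5′ end of the gene, had 0 matches. Of these, that of Lgmn overlapped the principal transcript and that of Ctsa was not found to. In each line the capitals mark the hexamer, with up to 10 bases on each side, read along the strand of the gene, and distances are from the start that defines the window.
Ctsa, 12 bases before the start, chr2:164833751-164833776, plus strand: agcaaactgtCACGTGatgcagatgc
Ctsa, 5 bases after the start, chr2:164833768-164833793, plus strand: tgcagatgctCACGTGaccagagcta
Ctsd, 98 bases before the start, chr7:142387910-142387935, minus strand: gcccgcgtctCACGTGacccgttgag
Ctsd, 245 bases before the start, chr7:142388057-142388077, minus strand: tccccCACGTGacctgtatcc
Ctsl, 236 bases before the start, chr13:64370741-64370766, minus strand: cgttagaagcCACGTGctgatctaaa
Ifi30, 196 bases before the start, chr8:70766844-70766869, minus strand: ccaaaaacttCACGTGaccagacatg
Lgmn, 49 bases before the start, chr12:102439126-102439151, minus strand: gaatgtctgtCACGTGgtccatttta

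The hexamer GACGTG, part of the element bound by spliced XBP1, was searched on both strands and was in 0 of the 10 windows, against 6.38% of all windows. GAGGAA, a core read by PU.1, was in 3 of the 10 windows, those of Ctsc, Ctss and Ifi30, against 28.3% of all windows. These matches are a description of letters in these windows. CACGTG reads alike on both strands and shares all but its first letter with GACGTG, and no GAGGAA match overlapped a CACGTG match.

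CTGCAG, the DNA letters of the consensus at sites cut by IRE1, was searched on the sense strand of the principal GENCODE M21 transcript of 9 of the genes, all but Ifi30. It was present in 85.8% of 11331 tested genes, with a median of 2 matches, or 0.777 per kb of transcript. Ctsa had 5 matches, Ctsb had 3, Ctsd, Ctsh, Ctsl, Ctss and Lgmn had 1 each, and Ctsc and Ctsz had 0. Per kb, Ctsa (1.37) was above that median, and Ctss (0.738), Ctsb (0.633) and Ctsh (0.618) were below it. The windows of Ctsb and Ctsh are shown because their counts fell in Xbp1 KO cDC1. The capitals mark CTGCAG, the position is that of the hexamer in GRCm38, and both genes lie on the plus strand.
Ctsb, 5′ UTR, exon 1, chr14:63122536-63122541: ttggcttggtggCTGCAGgcccaggctgtc
Ctsb, 3′ UTR, exon 10, chr14:63142678-63142683: caagggctttgaCTGCAGgacttccaaaag
Ctsb, 3′ UTR, exon 10, chr14:63143161-63143166: cacggttctgtgCTGCAGtttcaaggcttt
Ctsh, coding sequence, exon 3, chr9:90061558-90061563: tacaaccacagaCTGCAGatgtttgccaac

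In WT cells the most abundant of the 10 transcripts per length was Ctss, the cysteine endopeptidase that completes invariant chain removal in dendritic cells. Its level was 476 ± 56.1 CPM per kb of exon in cDC1 (SD, n = 3) and 943 ± 66.7 in cDC2 (SD, n = 4). Ctsz, a carboxypeptidase also called cathepsin X, followed at 345 ± 51.6 CPM per kb in cDC1 and 524 ± 43.7 in cDC2. Ifi30 ranked next, with 253 ± 63.9 CPM per kb in cDC1 and 455 ± 110.5 in cDC2, and its libraries overlapped those of Ctsz in both cell types. Ctsl, the cysteine endopeptidase that cuts the invariant chain in thymic cortical epithelium of the mouse, was lowest at 0.766 ± 0.224 CPM per kb in cDC1 and 1.48 ± 0.198 in cDC2. The remaining 6 genes lay between 20.2 and 136 CPM per kb on average in cDC1 and between 48.4 and 172 in cDC2. In cDC1 the neighbours Ctsc, Ctsa, Lgmn and Ctsd overlapped in their ranges. In cDC2 Ctsb overlapped Ctsa, and Ctsd overlapped Lgmn. In all 6 groups Ctss ranked first, Ctsz second in mean, Ifi30 next and Ctsl last. This order depends on the divisor, the combined length of all annotated exons of a gene. In CPM without it, Ctsb exceeded Ctss in WT cDC1, at 916, 811 and 737 against 732, 623 and 586.

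**Figure D1:**
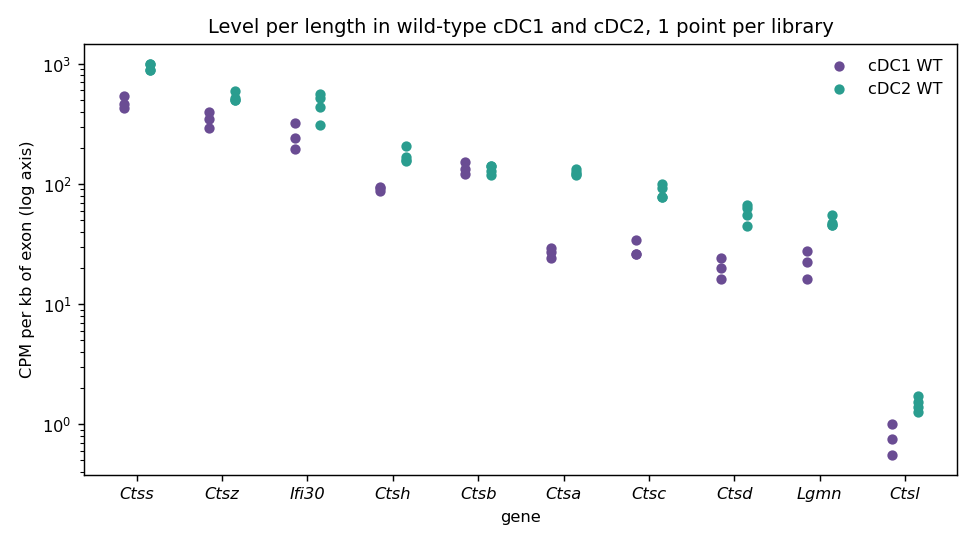
Level per length of the 10 genes in WT cDC1 and WT cDC2, as CPM per kb of exon on a log axis, with 1 point per library and genes ordered by their mean in cDC2. Ctss is highest and Ctsl lowest in both cell types, and Ctsb is the gene whose cDC1 and cDC2 points lie at the same level.

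WT cDC1 held less of 9 of the 10 transcripts than WT cDC2, and none was called higher. Of 12185 genes tested, 40.8% were called in either direction and 20.7% were called lower in cDC1. The median log2 fold change was -0.97 over the 10 genes and -0.04 over all tested genes. Being lower in a bulk sample can come from fewer cells of a type or from less RNA per cell, which cannot be told apart here.

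Ctsa, a serine carboxypeptidase that also protects lysosomal galactosidase and neuraminidase, differed most. Its CPM was 127, 139 and 115 in the WT cDC1 libraries and 557, 596, 577 and 630.3 in the WT cDC2 libraries. The groups were far apart (log2 fold change -2.22 ± 0.14 SE, adjusted p = 8.71e-11). Ctsa (chr2:164832873-164841032, plus strand) shares 495 exonic bases with Pltp on the opposite strand, a lipid transfer protein gene that was lower in cDC1 by far (1.87 ± 0.818 CPM against 121 ± 22.2 CPM in cDC2, log2 fold change -6.02 ± 0.49, adjusted p = 5.01e-09). No source used here says whether counting used strand, so reads over the shared bases cannot be told apart. The part of Pltp in the difference of Ctsa was not tested.

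Among the endopeptidases, Ctss was 732, 623 and 586 CPM in WT cDC1 and between 1200.2 and 1364 CPM in WT cDC2. Every cDC1 library was lower than every cDC2 library (log2 fold change -0.98 ± 0.10, adjusted p = 1.25e-07). Lgmn, which also matures cathepsin precursors, was lower by 2.18-fold (-1.12 ± 0.17, adjusted p = 2.37e-05), and the aspartic protease Ctsd by 2.85-fold (-1.51 ± 0.41, adjusted p = 0.00588). Between the libraries named WT alone, 1 of cDC1 and 2 of cDC2, Ctsd was not called (-1.20, adjusted p = 0.245). Ctsl was 3.58, 4.85 and 6.48 CPM in WT cDC1 and 8.22, 9.03, 9.98 and 11.2 CPM in WT cDC2 (-0.95 ± 0.34, adjusted p = 0.0319). That call was the weakest of the 9. It was lost without cDC1 replicate 1 (adjusted p = 0.139), cDC1 replicate 2 (0.08), cDC2 replicate 3 (0.0565) or cDC2 replicate 4 (0.07), and with the fl-fl libraries alone (0.0886) or the libraries named WT alone (0.382). Summed red pulp macrophage markers were 249 to 398 CPM in WT cDC1 and 524 to 975 CPM in WT cDC2, with none of the 12 at 0. Of these, Adgre1 alone was 8.38 to 14.7 CPM in WT cDC1 and 283 to 365 CPM in WT cDC2. Vcam1 overlapped, at 73.2 to 133 CPM in cDC1 and 47.4 to 125 CPM in cDC2. C1qa was 6.63 to 15.8 CPM in cDC1 and 22.6 to 44.2 CPM in cDC2. The part of these markers in the levels of Ctsd and Ctsl was not tested. Both genes also share exonic bases with annotated genes that are absent from the count tables. Ctsd shares 808 bases with Gm49369 on the same strand. Ctsl shares 1742 with Gm47123 on the opposite strand and 395 with the pseudogene Gm49230 on the same strand. The part of these overlaps in the counts was not tested either. Smaller overlaps were those of Ifi30 (85 bases) and Ctsz (10 bases).

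Among the exopeptidases, Ctsc, the dipeptidyl peptidase that activates granule serine proteases, was lower in WT cDC1 by 3.02-fold (log2 fold change -1.60 ± 0.16, adjusted p = 1.08e-07). Ctsh, an aminopeptidase, was lower by 1.87-fold (-0.90 ± 0.12, adjusted p = 2.55e-06) and Ctsz by 1.52-fold (-0.61 ± 0.11, adjusted p = 0.000153). Ifi30 was 315, 238 and 191 CPM in WT cDC1 and 506, 549, 428 and 302 CPM in WT cDC2. The lowest cDC2 library lay under the highest cDC1 library, and the difference passed the test (-0.85 ± 0.18, adjusted p = 0.000851). Ctsb, a cysteine protease with endopeptidase and carboxydipeptidase activity, was 916, 811 and 737 CPM in WT cDC1 and 772, 849, 719 and 846 CPM in WT cDC2. These groups overlapped throughout (0.04 ± 0.16, 95% interval -0.27 to 0.36, adjusted p = 0.853).

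**Figure D2:**
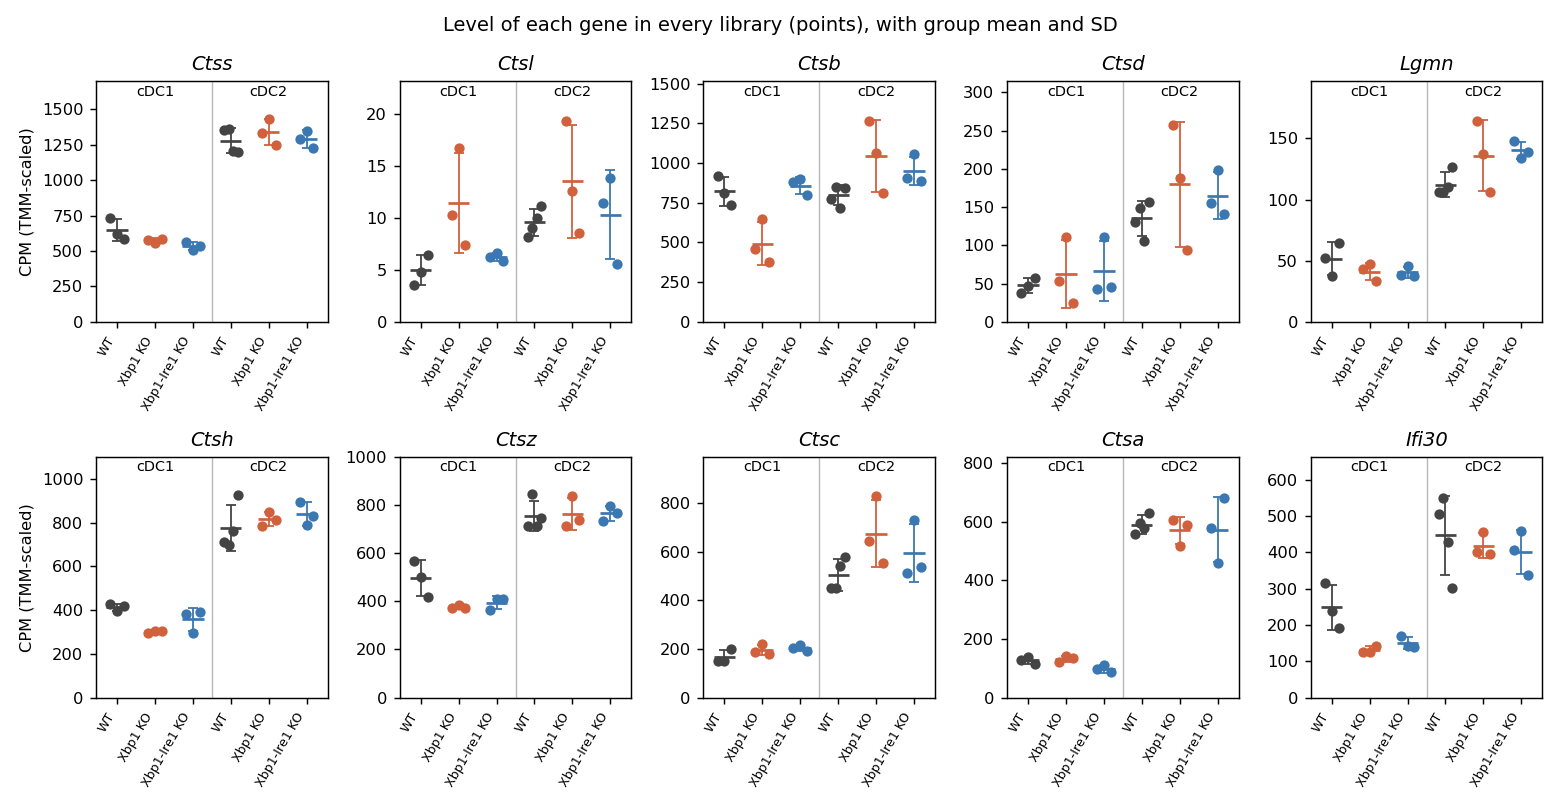
CPM of each of the 10 genes in the 19 libraries, in a panel per gene with axes that start at 0; points are libraries, horizontal lines group means and bars SD. In cDC1 the Xbp1 KO libraries of Ctsb (375 to 645 CPM) lie below both other genotypes, while those of Ifi30 (124 to 142 CPM) lie below WT and reach the Xbp1-Ire1 KO libraries.

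In cDC1 the loss of Xbp1 went with lower Ctsb, Ctsh and Ifi30 and with higher Ctsl. These 4 of 10 genes were called against WT, where 11.2% of 11353 tested genes were called. The 3 lower genes stand beside 6.91% of all genes called lower, and the 1 higher gene beside 4.28% called higher. The median log2 fold change was -0.26 over the 10 genes and -0.02 over all tested genes.

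Ctsb (chr14:63122462-63145923, plus strand) was 459.9, 645 and 375 CPM in the Xbp1 KO libraries, against 916, 811 and 737 CPM in WT. The groups did not overlap, and Ctsb fell by 0.75 on the log2 scale (SE 0.17, adjusted p = 0.0157). Without any 1 of the 6 libraries the value stayed between -0.98 and -0.57. The call was lost without WT replicate 1 (adjusted p = 0.0824), Xbp1 KO replicate 1 (0.0825) or Xbp1 KO replicate 3 (0.0555). That last library, the lowest in Ctsb, held 2214 CPM of pancreatic acinar transcripts, and without it the value was -0.57. Against the library named WT alone Ctsb was not called (-0.57, adjusted p = 0.229). The highest of the Xbp1 KO values, in replicate 2, came from the cDC1 library with the most red pulp macrophage transcripts (999 CPM). With that library and its counterpart in Xbp1-Ire1 KO left out, Ctsb was at -0.97 (adjusted p = 0.00525).

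In the Xbp1-Ire1 KO libraries Ctsb was 878, 899 and 796 CPM, all above the 3 Xbp1 KO libraries and among the WT values. It rose by 0.81 ± 0.17 on the log2 scale against Xbp1 KO (adjusted p = 0.00843), and its value against WT was 0.07 ± 0.17 (95% interval -0.27 to 0.40, adjusted p = 0.863). The rise against Xbp1 KO was the only call among the 10 genes, where 12.7% of genes were called and 7.13% were called higher. Without Xbp1 KO replicate 1 it was 0.74 (adjusted p = 0.0578). The comparisons with WT and with Xbp1-Ire1 KO share the Xbp1 KO libraries and are not independent.

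Ctsb shares 774 exonic bases with Fdft1 on the opposite strand, the gene of squalene synthase, which makes a sterol precursor. Fdft1 was 33.6 ± 3.60 CPM in WT cDC1, 15.2 ± 1.12 in Xbp1 KO and 22.8 ± 1.91 in Xbp1-Ire1 KO (SD, n = 3 each). It fell in Xbp1 KO (log2 fold change -1.16 ± 0.17, adjusted p = 0.000628) and was higher in Xbp1-Ire1 KO than in Xbp1 KO (0.60 ± 0.17, adjusted p = 0.0317). Reads over the shared bases cannot be told apart here either, and the part of Fdft1 in the difference of Ctsb was not tested. Of 9 tested genes within 1000000 bases of Ctsb, Fdft1 was the 1 gene called lower in Xbp1 KO and 0 were called higher. This is near the 11.2% of all genes called in that comparison. Between the knockouts Fdft1 was called higher and Ints6 lower (log2 fold change -0.57, adjusted p = 0.00986), beside 12.7% of all genes. In Xbp1-Ire1 KO against WT 0 of the 9 were called, beside 7.75% of all genes.

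Ifi30 (chr8:70762774-70766663, minus strand) was 126, 124 and 142 CPM in Xbp1 KO cDC1, against 315, 238 and 191 CPM in WT. All Xbp1 KO libraries lay below all WT libraries, and Ifi30 fell by 0.93 on the log2 scale (SE 0.17, adjusted p = 0.00349). It was called without each of the 6 libraries in turn, with values from -1.08 to -0.71. In Xbp1-Ire1 KO the CPM was 169.9, 142 and 140.2, again below every WT library. Ifi30 fell there by 0.71 (SE 0.17, adjusted p = 0.0193), and the value against Xbp1 KO was 0.22 ± 0.17 (95% interval -0.11 to 0.55, adjusted p = 0.428).

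Among the WT libraries, Ifi30 was lowest in replicate 3, the library named WT. Against the 2 fl-fl libraries alone, its log2 fold change was -1.08 in Xbp1 KO (adjusted p = 0.00011) and -0.88 in Xbp1-Ire1 KO (adjusted p = 0.000864). Against the library named WT alone the values were -0.54 (adjusted p = 0.116) and -0.33 (adjusted p = 0.294). In Xbp1-Ire1 KO the call was also lost without WT replicate 1 (adjusted p = 0.0872) and without Xbp1-Ire1 KO replicate 2 (0.06) or replicate 3 (0.0883). Ifi30 was the only 1 of the 10 genes called in Xbp1-Ire1 KO cDC1 against WT, where 7.75% of genes were called and 4.71% were called lower.

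Ctsh (chr9:90054152-90076089, plus strand) was 293, 303 and 303 CPM in Xbp1 KO cDC1 and 426, 395 and 418 CPM in WT. The replicates were tight and the groups apart, and Ctsh fell by 0.47 on the log2 scale (SE 0.12, adjusted p = 0.0278). In Xbp1-Ire1 KO it was 382, 297 and 392 CPM, with replicate 2 at the Xbp1 KO level and the others closer to WT (log2 fold change against WT -0.21 ± 0.12, adjusted p = 0.352). Its value in Xbp1 KO stayed between -0.50 and -0.44 without any 1 library. The adjusted p then passed 0.05 for WT replicate 1 (0.107) and replicate 2 (0.065), and for Xbp1 KO replicates 1 (0.116), 2 (0.101) and 3 (0.0696).

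Ctsl (chr13:64359337-64370890, minus strand) was 10.3, 16.8 and 7.37 CPM in Xbp1 KO cDC1 and 3.58, 4.85 and 6.48 CPM in WT. The lowest Xbp1 KO library was just above the highest WT library, and Ctsl rose by 1.19 on the log2 scale (SE 0.34, adjusted p = 0.0400). The highest value was again in replicate 2, the library with 999 CPM of macrophage markers. Without Xbp1 KO replicate 2 it was 0.82 (adjusted p = 0.195), without Xbp1 KO replicate 1 it was 1.28 (0.0856), and without WT replicate 1 or 2 it was 1.02 (0.155) or 1.18 (0.112). Fitting the compared groups alone gave 1.21 (adjusted p = 0.0793). In Xbp1-Ire1 KO the level was 6.30, 6.62 and 5.84 CPM (0.34 ± 0.34 against WT, adjusted p = 0.614).

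The other 6 genes were not called in Xbp1 KO cDC1. Ctsz came closest, with 371, 386 and 374 CPM against 569, 501 and 420.3 CPM in WT (log2 fold change -0.41 ± 0.13, adjusted p = 0.0528). DESeq2 gave it an adjusted p of 0.0233, and limma on the authors' log2 values gave 0.0476. Ctss was 578, 555 and 585 CPM, with its highest library next to the lowest WT library at 586 (-0.19 ± 0.12, 95% interval -0.42 to 0.04, adjusted p = 0.319). Ctsa (0.04 ± 0.13), Ctsc (0.22 ± 0.14), Ctsd (0.39 ± 0.45) and Lgmn (-0.34 ± 0.20) all had groups that overlapped. Summed over the 10 genes, Xbp1 KO cDC1 held 2158 to 2550 CPM, WT held 2794 to 3332 and Xbp1-Ire1 KO held 2638 to 2746, a sum in which the abundant Ctsb weighs most in WT.

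In Xbp1-Ire1 KO cDC1 against WT, Ctsa, Ctss, Ctsz and Ctsc were not called. Ctsa was 97.6, 111 and 85.6 CPM, below the WT libraries (log2 fold change -0.36 ± 0.13, adjusted p = 0.122) and below the Xbp1 KO libraries at 120.2, 141 and 134 CPM (-0.41 ± 0.13, adjusted p = 0.0647). Without WT replicate 3, the library named WT, all 4 of these genes passed the test, with Ctsa at -0.44 (adjusted p = 0.0376), Ctss at -0.34 (0.0417), Ctsz at -0.44 (0.0118) and Ctsc at 0.43 (0.0273). The number of genes called was then 5, and it was 0 against the library named WT alone. DESeq2 called Ctsa lower in Xbp1-Ire1 KO than in Xbp1 KO (-0.42, adjusted p = 0.0265).

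**Figure D3:**
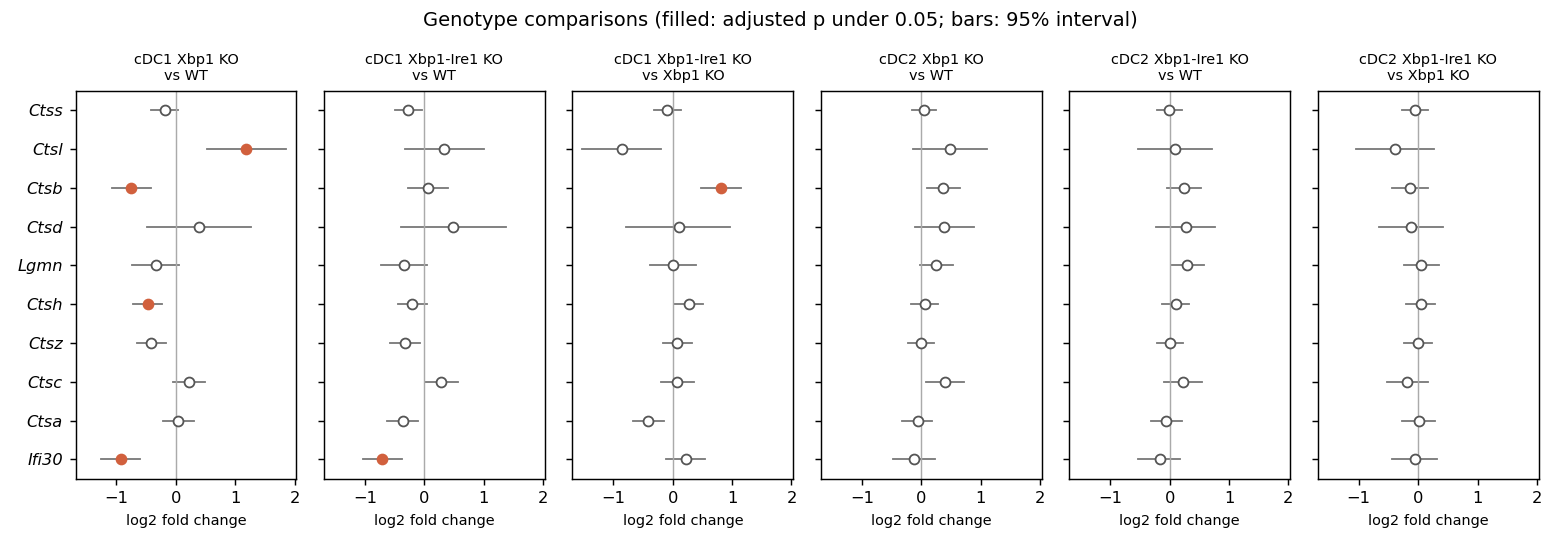
Log2 fold change of the 10 genes in the 6 genotype comparisons, in a panel per comparison; circles are estimates of the edgeR fit, bars their 95% intervals, and filled circles have an adjusted p under 0.05. Filled circles appear in the cDC1 panels alone, 4 for Xbp1 KO against WT and 1 in each other cDC1 panel.

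In cDC2 none of the 10 genes was called in any of the 3 genotype comparisons by edgeR, DESeq2 or limma. Few genes of any kind were called there, 0.103% of 11646 in Xbp1 KO against WT, 0.0258% in Xbp1-Ire1 KO against WT and 0.0343% between the knockouts. At an unadjusted p under 0.05 the counts by edgeR were 2, 1 and 0 of the 10 genes, beside 9.68%, 7.53% and 8.24% of all genes. Ctsb was 1264, 1062 and 809 CPM in Xbp1 KO cDC2 and 772, 849, 719 and 846 CPM in WT, with overlapping groups (log2 fold change 0.37 ± 0.14, 95% interval 0.10 to 0.65, adjusted p = 0.475). Ctsc was 643, 827 and 554 CPM against 449.6 to 578 CPM in WT (0.40 ± 0.16, adjusted p = 0.496). Ifi30 was 399.7, 457 and 396 CPM, inside the WT range of 302 to 549 (-0.12 ± 0.18, 95% interval -0.47 to 0.24, adjusted p = 0.840).

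Ctss, Ctsz, Ctsh and Ctsa had the narrowest intervals in cDC2. For Xbp1 KO against WT these ran from -0.16 to 0.25 for Ctss, from -0.22 to 0.21 for Ctsz, from -0.17 to 0.29 for Ctsh and from -0.32 to 0.19 for Ctsa, all on the log2 scale. Lgmn in Xbp1-Ire1 KO cDC2 was 148, 134 and 139 CPM, above every WT library (106 to 127 CPM), without passing the test (0.30 ± 0.14, adjusted p = 0.660). Replicate 1 of Xbp1 KO cDC2 had the highest Ctsb, Ctsd, Ctsl and Lgmn of its group and 2204 CPM of macrophage markers, against 512 to 1368 CPM in the other cDC2 libraries.

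A joint fit of the 19 libraries tested, by an interaction term, whether genotype acted differently in the 2 cell types. Ctsb was the gene called for Xbp1 KO against WT. Its effect was lower in cDC1 than in cDC2 by -1.13 ± 0.23 on the log2 scale (adjusted p = 0.00890), where 2.17% of genes were called and 1.84% were called lower. It was called without each of 13 libraries in turn, at -1.37 to -0.96. For Xbp1-Ire1 KO against Xbp1 KO its effect was higher in cDC1 by 0.94 ± 0.24 (adjusted p = 0.0478), where 2.14% of genes were called and 1.82% were called higher. This second call was held in 2 of 12 fits that left out a library, and the adjusted p reached 0.128. For Xbp1-Ire1 KO against WT 0 of the 10 genes were called by edgeR and by DESeq2, where edgeR called 2.23% of all genes. At an unadjusted p under 0.05 there were 3 of the 10 genes, beside 12.5% of all genes. The 3 tests share their libraries.

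Ifi30 and Ctsh, called in Xbp1 KO cDC1 and not in cDC2, did not pass the test of a difference between the cell types, and for Ctsh this depended on the fit. The difference was -0.83 ± 0.26 for Ifi30 (adjusted p = 0.127), -0.54 ± 0.17 for Ctsh (adjusted p = 0.116) and 0.70 ± 0.48 for Ctsl (adjusted p = 0.600). DESeq2 called the difference of Ctsh (adjusted p = 0.0492). By edgeR it was called with genotype and replicate number together as a block (-0.64, adjusted p = 0.0173), against fl-fl controls alone (-0.65, adjusted p = 0.0457) and without cDC2 WT replicate 4 (-0.63, adjusted p = 0.0427). That block joins same-numbered libraries of the 2 cell types, and in the knockouts such pairs deviated together little or not at all (r from -0.10 to 0.34). The difference of Ifi30 was called without cDC1 WT replicate 3 (-0.98, adjusted p = 0.0368).

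Markers of red pulp macrophages, phagocytes rich in lysosomal enzymes, were set beside the 10 genes within each group of libraries. In cDC1 they summed to 249, 254 and 398 CPM in WT, 468, 999 and 184 in Xbp1 KO and 212, 817 and 218 in Xbp1-Ire1 KO. In each of the 6 groups the library with most of these markers also had the most Ctsd and the most Ctsl, and the library with least had the least Ctsd. For Ctsb and Ctsa the same library was highest in 4 of 6 groups, and for Lgmn and Ctsc in 5. For Ctsh and Ctsz this held in 2 groups, and for Ctss and Ifi30 in 1. The library with least markers was lowest in 4 groups for Ctsb and Ctsl. It was lowest in 2 for Ctsc, Ctss, Ctsz, Lgmn and Ifi30, and in 0 for Ctsa and Ctsh. The share of all tested genes that match in this way was not counted. Ctsd was 53.3, 111 and 24.3 CPM in Xbp1 KO cDC1, so replicates of 1 genotype differed by more than the group means. With replicate 2 of both knockouts left out, Ctsd went from 0.39 to -0.29 in Xbp1 KO against WT, uncalled in both cases (adjusted p = 0.611 and 0.607), and 2 of the 10 genes were called, Ctsb and Ifi30 (-0.88, adjusted p = 0.0409).

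**Figure D4:**
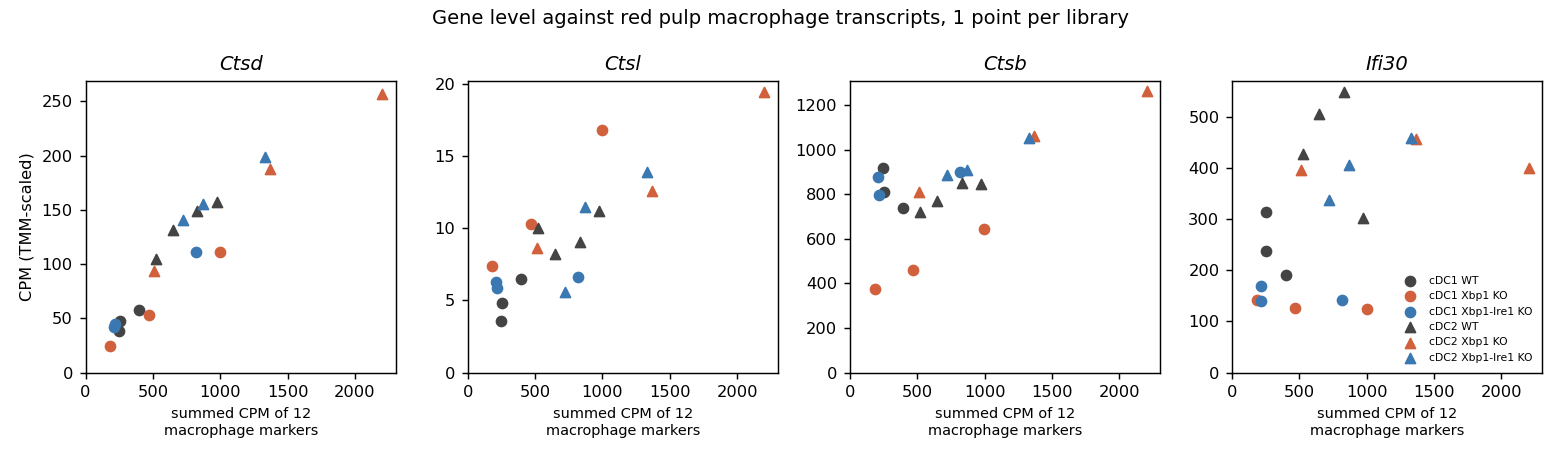
CPM of Ctsd, Ctsl, Ctsb and Ifi30 against the summed unscaled CPM of 12 red pulp macrophage markers, with 1 point per library, circles for cDC1 and triangles for cDC2, coloured by genotype. Ctsd is high where the markers are high in every group, whereas the Ctsb points of Xbp1 KO cDC1 lie at 375 to 645 CPM and below those of the other groups at like marker levels.

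Other transcripts moved with genotype in cDC1. Summed immediate early genes, which respond to handling and to stimulation, were 20631 to 24762 CPM in Xbp1 KO, 11340 to 14496 in WT and 8524 to 13645 in Xbp1-Ire1 KO. Monocyte markers were 134 to 236 CPM in Xbp1 KO, 57.9 to 91.5 in WT and 55.6 to 182 in Xbp1-Ire1 KO. Pancreatic acinar transcripts reached 2214 CPM in replicate 3 of Xbp1 KO cDC1, the library of its group lowest in Ctsb, Ctsd and Ctsl, and at most 8.86 CPM in every other library. Without it 2 of the 10 genes were called in Xbp1 KO against WT, Ctsl and Ifi30. The part of the immediate early and monocyte transcripts in the results above was not tested.

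Among other lysosomal peptidases, Tpp1 and Dpp7 changed by more in Xbp1 KO cDC1 than any of the 10 genes. Of 9 peptidases tested, 3 fell, 1 rose and 5 were not called, with a median log2 fold change of -0.23. Of all tested genes, 6.91% were called lower and 4.28% higher. Tpp1, a tripeptidyl peptidase, was 40.6 ± 2.03 CPM in WT, 10.2 ± 3.22 in Xbp1 KO and 37.5 ± 4.55 in Xbp1-Ire1 KO (SD, n = 3 each). It fell by 2.00 on the log2 scale (SE 0.21, adjusted p = 4.44e-05) and was 1.89 ± 0.21 higher in Xbp1-Ire1 KO than in Xbp1 KO (adjusted p = 5.93e-05). Dpp7, a dipeptidyl peptidase, fell by 2.30 (SE 0.26, adjusted p = 7.69e-05) and was 2.54 ± 0.26 higher in Xbp1-Ire1 KO (adjusted p = 2.9e-05). Napsa, an aspartic protease, fell both in Xbp1 KO (-0.74 ± 0.16, adjusted p = 0.0101) and in Xbp1-Ire1 KO (-0.64 ± 0.16, adjusted p = 0.0246). In cDC2 0 of 10 tested were called in each genotype comparison, where at most 0.103% of all genes were called.

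Genes that sort and activate lysosomal enzymes numbered 20, all tested. In Xbp1 KO cDC1 7 of them fell and 0 rose, with a median of -0.29. Over all tested genes 6.91% were called lower and 4.28% higher. Grn, the precursor of granulins, fell by 1.27 (SE 0.18, adjusted p = 0.000471). Gnptg, a subunit of the transferase that starts the mannose 6-phosphate tag, fell by 1.52 (SE 0.25, adjusted p = 0.0017), and Igf2r, a receptor for that tag, fell by 1.46 (SE 0.24, adjusted p = 0.00206). Against Xbp1 KO these 3 were higher in Xbp1-Ire1 KO, by 1.13, 1.82 and 1.54. Of the 20 genes, 4 fell in Xbp1-Ire1 KO against WT, beside 4.71% of all genes. They were led by Ap1g1, an adaptor subunit (-0.53 ± 0.11, adjusted p = 0.0121). Igf2r was 39.9 ± 1.65 CPM in WT cDC1 and 0.413 ± 0.316 in WT cDC2 (SD, n = 3 and 4).

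Of 10 class II genes, 3 fell in Xbp1 KO cDC1, beside 6.91% of all genes, with a median of -0.29. H2-DMb1, a chain of the peptide editor, fell by 0.89 (SE 0.11, adjusted p = 0.000118), H2-Ab1 by 0.60 (SE 0.14, adjusted p = 0.0175) and the invariant chain Cd74 by 0.53 (SE 0.15, adjusted p = 0.0430). In Xbp1-Ire1 KO 4 fell against WT, beside 4.71% of all genes, with Cd74 at -0.73 ± 0.16 (adjusted p = 0.0115). Of 10 tested protease inhibitors, 1 fell in Xbp1 KO, a share near the 6.91% of all genes. That gene was Serpinb1a, an inhibitor of neutrophil serine proteases (-1.42 ± 0.24, adjusted p = 0.00212). It also fell in Xbp1-Ire1 KO (-1.19 ± 0.24, adjusted p = 0.00739), together with Serpinb9, the granzyme B inhibitor (-0.73 ± 0.16, adjusted p = 0.0116). Of 8 tested transcription factors of lysosomal and class II genes, 1 was called in Xbp1 KO, a share near the 11.2% of all genes. That was the class II transactivator Ciita, which rose by 0.49 (SE 0.15, adjusted p = 0.0471). Of 10 tested peptidases of class I antigen processing, 0 were called in either knockout of cDC1 against WT, beside 11.2% and 7.75% of all genes.

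Between the WT cell types, most protease inhibitors were higher in cDC1. Of 11 tested, 7 were higher in cDC1 and 1 was lower, beside 20% and 20.7% of all genes, with a median log2 fold change of 1.24. Cst3, encoding the secreted cysteine protease inhibitor cystatin C, was 19193 ± 4203 CPM in WT cDC1 (SD, n = 3) and 1019 ± 240.1 CPM in WT cDC2 (SD, n = 4). Every cDC1 library was above every cDC2 library (4.24 ± 0.19, adjusted p = 5.75e-13). Serpinb6b (3.74 ± 0.18, adjusted p = 1.66e-12) and Serpinb9 (3.04 ± 0.23, adjusted p = 1.3e-09) were higher in cDC1 too. Cst7, cystatin F, was the 1 lower gene, at 0.159 ± 0.205 CPM against 6.38 ± 1.18 CPM in cDC2.

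Of 9 transcription factors tested between the WT cell types, 4 were lower in cDC1 and 1 was higher. Over all tested genes 20.7% were called lower and 20% higher, shares that stand beside each count in this paragraph. Tfeb, which drives lysosomal genes, was 63.3 ± 5.47 CPM in WT cDC1 and 200.1 ± 26.2 CPM in WT cDC2 (log2 fold change -1.66 ± 0.12, adjusted p = 1.06e-09). Irf8, which defines cDC1, was higher (4.81 ± 0.19, adjusted p = 2.12e-13) and Irf4, which acts in cDC2, lower (-3.95 ± 0.48, adjusted p = 1.25e-06). Both are also markers of the sort. Other lysosomal peptidases were split, 3 higher and 3 lower of 10, as were the sorting genes, 8 higher and 6 lower of 20. Of 10 class II genes 4 were higher and 2 lower, and of 10 peptidases of class I processing 5 were higher and 2 lower.

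Genes with the pattern nearest to Ctsb, Ctsh and Ctsl were found among 8424 genes, by the root mean square difference of log2 CPM over the 19 libraries after centring within each cell type. For Ctsb these were Atp9b, Tusc3 and Ralgapb, each at 0.20, where Ctsb itself varied by 0.34. For Ctsh, which varied by 0.18, they were Vamp8 (0.08), Ostf1 and Ubb (0.09 each). For Ctsl, which varied by 0.52, they were Gtf2ird1, Arhgap21 and Apc, each at 0.29.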

How the data were processed

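Raw counts per gene symbol of 19 bulk RNA-seq libraries were deposited by the authors, in 1 table per cell type. The authors' normalised log2 values, also deposited, were used in 1 alternative. Per the labels, 5000 to 50000 cells were sorted for each library. The submitters' processing notes list TopHat2 2.1.0 and the mm10 genome, with Trimmomatic 0.35 and limma 3.42.2 among other tools, without their roles. No source used here names the counting program or says whether it used strand.

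The count test was edgeR 4.0.16 in R 4.3.3 (quasi-likelihood F test, TMM scaling, filterByExpr at 10 counts and a total of 15). Each cell type had its own fit of 3 genotypes, and comparisons between cell types used a fit of all 19 libraries. Benjamini-Hochberg adjustment ran over all tested genes, and genes with an adjusted p under 0.05 were called. The SE is approximate, taken as |log2 fold change| over √F, and gives the 95% intervals. CPM per kb uses the combined length of all exons annotated for a gene in GENCODE M21, in which 23384 of 24421 symbols matched. Sums of markers and of immediate early genes, and the values of the single markers Adgre1, Vcam1 and C1qa, are unscaled CPM. The fit was tested on simulated data.

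Other settings tried were no filter, DESeq2 1.42.0, edgeR with DESeq2 size factors, a filter at 50 counts, a replicate block, fl-fl or WT-named controls alone, each library left out, and limma 3.58.1 on the deposited log2 values. Fits of the compared groups alone and without the macrophage-rich knockout libraries were chosen after seeing the data. Every member was named, and for each of the 6 other lists up to 3 called genes with the smallest adjusted p per comparison were eligible, of which not all are printed; Cst7 falls outside this rule and was chosen after its values were seen. Members and lists were chosen with earlier results of these data known. No pair of replicates agreed within sampling noise (chi-square per degree of freedom at least 9.166). The genes nearest in pattern to Ifi30 are not reported here. In the comparison of WT cDC1 with WT cDC2, same-numbered libraries deviated together (r of 0.34, 0.52 and 0.49), so the numbers met the criterion for pairs. These replicate numbers are those of the sample titles. The deposited column names number some libraries otherwise, and by them replicate 3 of WT cDC1 and replicate 3 of WT cDC2 do not share a number. Libraries of 1 kind of name (fl-fl or WT) and different numbers did so too (r from 0.12 to 0.53). Those of unlike names deviated oppositely (r from -0.63 to -0.31). Within a cell type, chi-square per degree of freedom of WT libraries was 13.61 to 24.77 within a kind of name. Across names it was 52.28 to 75.02, so the WT libraries of each cell type split by name. What the names stand for was not tested.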

Additional observations from a re-analysis of the deposited data

Results flagged for a closer look

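Ctsb was the gene whose genotype effect differed between the cell types. The effect of Xbp1 KO against WT was lower in cDC1 than in cDC2 by -1.13 on the log2 scale, with -0.75 ± 0.17 in cDC1 and 0.37 ± 0.14 in cDC2. The effect of Xbp1-Ire1 KO against Xbp1 KO was higher in cDC1 by 0.94, with 0.81 ± 0.17 in cDC1 and -0.14 ± 0.15 in cDC2. Both differences were tested as interactions in edgeR (adjusted p = 0.00890 and 0.0478), and both use the Xbp1 KO libraries. In the 10 sets of 4 WT cDC2 libraries, 1 for each gene, no library stood far from the others by Dixon's 95% criterion, which flags about 1 in 20 sets by chance.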

How the results depend on the processing

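In cDC1 Xbp1 KO against WT, 4 genes were called, with 0 against the library named WT, 2 without the macrophage-rich knockout libraries, and 1 to 6 when each library was left out. In Xbp1-Ire1 KO against WT, 1 was called, with 5 against fl-fl controls, 0 against the library named WT, 0 in the fit of the compared groups alone, 0 without the macrophage-rich libraries, and 0 to 5 leaving each out. Between the cDC1 knockouts, 1 was called, with 2 by DESeq2, by the stricter filter and in the groups alone, and 0 to 2 leaving each out. For the cell type difference of Xbp1 KO against WT, 1 was called, with 2 by DESeq2, with the replicate block and against fl-fl controls, 0 against WT-named controls, and 1 to 2 leaving each out. For that of Xbp1-Ire1 KO against Xbp1 KO, 1 was called, with 0 under DESeq2 size factors and 0 to 1 leaving each out. The causes were not tested, but controls restricted by name leave 2 or 1 WT libraries in cDC1. Between the WT cell types 9 were called, with 8 among fl-fl libraries, 7 among WT-named ones and 8 to 9 leaving each out. The cDC2 comparisons had 0 in each.

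No called value changed sign. Over the 10 genes and 10 comparisons, 791 of 830 values that left out a library kept their side of the threshold, as did 760 of 790 under other settings. Most of these values were uncalled to begin with. In Xbp1 KO cDC1 against WT, of 6 fits that left out a library, Ctsh was called in 1, Ctsl in 2, Ctsb in 3 and Ifi30 in 6. In Xbp1-Ire1 KO cDC1 the calls held in 3 of 6 for Ifi30 against WT and 5 of 6 for Ctsb against Xbp1 KO. The interaction calls of Ctsb held in 13 of 13 and 2 of 12. Libraries with the same number in their titles did not all deviate together (r from -0.27 to 0.31 within cDC1, from -0.23 to 0.46 within cDC2 and from -0.10 to 0.52 between cell types within a genotype), so the numbers were not taken as pairs, except between the WT cell types, where the replicate block also gave 9 calls. With the block the cell type difference of Ctsh was -0.64 (adjusted p = 0.0173). Ctsl in Xbp1 KO cDC1 was 1.16 (adjusted p = 0.057), and 3 genes were called there. Ctsl, with 42 counts in its lowest WT cDC1 library, is the gene most limited by depth.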
